A study of Homo sapiens with 24 samples.

Results

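The response to dihydrotestosterone (DHT, a potent natural androgen) was followed in C4-2B cells that had received an siRNA against CREBBP (siCBP). It comprises 8 of the 24 arrays of the series: 4 labelled siCBP with 16 h of 10 nM DHT and 4 labelled siCBP with 0 h of DHT, chosen by their sample titles alone. C4-2B is an established human line derived from LNCaP prostate cancer cells that responds to androgen, and the arrays are single-colour Illumina bead arrays of total RNA. The other arms, used only to set the response beside, carried an siRNA against EP300 (sip300) or a non-specific siRNA (siNS), each with the same times and 4 arrays per time. All 6 groups were first kept for 3 days without phenol red and with 5% serum stripped by charcoal, which removes steroids. The labels name no vehicle and no harvest time for the 0 h cells, so other effects of the 16 h cannot be told apart from DHT. They number the replicates but do not say that these came from different cultures, so the p-values measure only the spread among the arrays, which may be technical. The RNA is from bulk cultures of a single line, and fewer cells in a given state and less RNA per cell cannot be told apart.

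Androgens act through the androgen receptor, a nuclear receptor that binds DNA after it binds DHT and recruits coactivators to its target genes. In prostate epithelium its targets include the kallikrein proteases of seminal fluid, TMPRSS2 and FKBP5, while another group of genes is repressed. CREBBP encodes CBP and EP300 encodes p300, closely related acetyltransferases that serve as coactivators for many transcription factors, the androgen receptor among them. The series title asks whether both serve androgen-regulated expression alike.

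The CREBBP probe averaged 7.74 ± 0.308 with DHT and 7.99 ± 0.362 without it in siCBP cells, against 9.48 ± 0.184 and 9.67 ± 0.214 in siNS cells (normalised log2 signal, SD, n = 4 each). CREBBP itself differed by -0.25 ± 0.184 between the siCBP groups (log2, SE), which did not pass the test (adjusted p = 0.612, limma), and its arrays overlapped. EP300 averaged 8.35 ± 0.39 with DHT and 8.58 ± 0.384 without it in siCBP cells (SD, n = 4 each), and that difference did not pass the test either (adjusted p = 0.641, limma). Between 17663 and 19503 probes were detected on each siCBP array, and mean raw signals lay between 572 and 843 units; the number of arrays limits the precision. Markers of luminal prostate epithelium were present, 10 of the 12 on the array being detected on all 8 siCBP arrays. Of the markers of other cell types detected on all 8 arrays there were 0 of 9 for basal epithelium, 3 of 13 for stroma (FBLN1, TAGLN and VIM), 1 of 11 for leukocytes (CD68) and 2 of 10 for neuroendocrine cells (ENO2 and SYT4). The basal keratins KRT5, KRT14 and KRT15, the leukocyte marker PTPRC and the neuroendocrine marker SYP were detected on none of the 8. In siCBP cells the summed linear signal of the stromal markers was 1221 to 2590 with DHT and 1283 to 2311 without it, and that of the neuroendocrine markers 1381 to 2725 with DHT and 1468 to 2710 without it. For the leukocyte markers it was 718 to 950 with DHT and 757 to 804 without it, and for the basal markers 319 to 372 with DHT and 352 to 360 without it. Of these 4 lists 2 basal, 6 stromal, 4 leukocyte and 4 neuroendocrine genes were tested. None of them was called, too few genes to read against the 4.86% called of all genes tested. Each slide held 2 of the 4 arrays of each siCBP group. Slide 1 held replicates 2 and 4 with DHT and 1 and 4 without it. Slide 2 held replicates 1 and 3 with DHT and 2 and 3 without it. Changes within a slide therefore set arrays of replicates 1 and 2 against each other, and mix differences between replicates with those between slides.

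DHT changed 605 of the 12438 genes tested in siCBP cells, 4.86% of them: 308 rose (2.48%) and 297 fell (2.39%). Calls were made at an adjusted p under 0.05 in a limma fit that held the replicate number as a block, and changes are differences of normalised log2 signal, 16 h of DHT minus 0 h. The normalisation adds an offset to each signal, so changes of dim genes are understated. The rises were larger than the falls at the extreme. Changes over 2 on the log2 scale were seen in 24 genes that rose and 6 that fell, and changes over 1 in 130 and 92. The median change was 0.91 among genes that rose, -0.77 among genes that fell and -0.02 over all genes tested. Of the 605 genes, 597 moved the same way in 4 of 4 replicate pairs and 8 in 3 of 4. The fit that called them favours genes whose pairs move together, so this agreement is not independent evidence. The 4 arrays with DHT did not overlap the 4 without it for 754 genes (6.06%), 388 higher (3.12%) and 366 lower (2.94%), of which 394 were called. Without the block the same fit called 277 genes (2.23%), 171 higher and 106 lower. Of 87 called genes that were named by rule, 25 did not pass without the block: ACP3, KCNJ13, GASK1B, KCNU1, HOXB13, UGT2B17, CSGALNACT1, ST6GAL1, DNAJC3, SEC23B, IDI1, HK2, VEGFA, NDUFAF4, SLC26A3, HOXB5, MAF, CYP1A1, GDF15, MX1, B2M, KLK3, SYNGR1, TRIM49C and KLK4. Another 238 probes of 182 called genes passed the detection filter, and 221 of them had the sign of the probe used. None of the 238 had the opposite sign at an unadjusted p under 0.05.

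**Figure D1:**
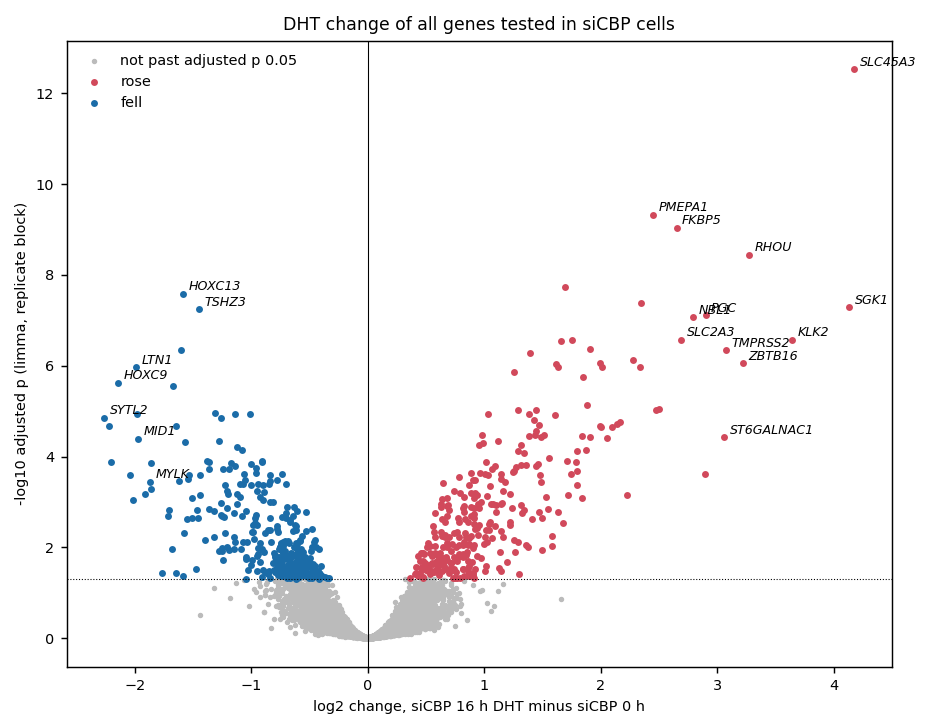
Change of every gene tested in siCBP cells (x axis, log2, 16 h DHT minus 0 h) against -log10 of the adjusted p from limma with the replicate block (y axis); red points rose, blue points fell, grey points did not pass an adjusted p of 0.05 (dotted line). SLC45A3 lies at 4.17, while the lowest change, of SYTL2, is -2.26.

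Genes of prostate epithelium and of the androgen response were among those that rose most. SLC45A3, which encodes the prostate membrane protein prostein, had levels of 12.23, 12.78, 12.83 and 11.93 with DHT and 7.76, 8.79, 8.93 and 7.58 without it (normalised log2 signal, replicates 1 to 4). The lowest array with DHT lay 3 log2 units above the highest without it. The change was 4.17 ± 0.148 (SE), an 18.1-fold rise (adjusted p = 2.93e-13, limma). TMPRSS2, a membrane-anchored serine protease whose promoter is fused to ETS genes in many prostate cancers, had levels of 12.35, 12.24, 11.30 and 12.50 with DHT and 9.91, 8.86, 8.36 and 8.97 without it. Its groups did not overlap, and its change was 3.07 ± 0.276 (adjusted p = 4.55e-07, limma). FKBP5, a co-chaperone of steroid receptors, had levels of 13.69, 13.44, 13.28 and 13.63 with DHT and 10.90, 10.78, 10.89 and 10.87 without it. The arrays without DHT lay within a narrow band, and the rise was 2.65 ± 0.152 (adjusted p = 9.15e-10, limma).

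The kallikreins KLK2, KLK3, KLK4 and KLK15, secreted serine proteases encoded in a cluster on chromosome 19, rose together. KLK2 had levels of 10.66, 10.37, 9.96 and 10.82 with DHT and 7.97, 6.49, 5.43 and 7.35 without it, a change of 3.64 ± 0.313 (adjusted p = 2.73e-07, limma). It was detected on 3 of 4 arrays without DHT, so that change includes a signal below detection. KLK3, which encodes prostate-specific antigen, had levels of 10.91, 11.50, 10.23 and 11.62 with DHT and 10.19, 8.83, 6.37 and 9.99 without it. Its groups did not overlap, but the arrays without DHT spread widely, and the pairs rose by 0.72, 2.68, 3.86 and 1.63. The mean change was 2.22 ± 0.374 (adjusted p = 0.000716, limma), and without the replicate block the same change did not pass (adjusted p = 0.0912). Within slide 1 alone it was 1.47 and within slide 2 alone 2.97, each from 2 arrays against 2, and neither passed. KLK4 had levels of 13.76, 13.88, 13.56 and 13.73 with DHT and 13.40, 12.74, 12.16 and 12.99 without it, a change of 0.91 ± 0.17 (adjusted p = 0.00181; 0.0771 without the block). KLK15 rose by 0.95 ± 0.198 (adjusted p = 0.00525, limma). KLK2 and KLK3 are close paralogs, and whether a probe also binds the other's RNA was not tested.

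The 250 bases before the RefSeq start of KLK2 and KLK3 (GRCh38.p14, + strand of chromosome 19, chr19:50873189-50873438 and chr19:50854665-50854914) are shown because both genes rose and both windows hold a match to an androgen response element. The capitals mark that match, whose first base lies 176 bases before the start of KLK2 and 170 before that of KLK3.
KLK2: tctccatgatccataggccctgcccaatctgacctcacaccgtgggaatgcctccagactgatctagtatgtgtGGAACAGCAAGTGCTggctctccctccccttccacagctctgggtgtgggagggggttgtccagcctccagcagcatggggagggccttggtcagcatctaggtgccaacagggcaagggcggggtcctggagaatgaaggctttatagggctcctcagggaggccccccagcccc
KLK3: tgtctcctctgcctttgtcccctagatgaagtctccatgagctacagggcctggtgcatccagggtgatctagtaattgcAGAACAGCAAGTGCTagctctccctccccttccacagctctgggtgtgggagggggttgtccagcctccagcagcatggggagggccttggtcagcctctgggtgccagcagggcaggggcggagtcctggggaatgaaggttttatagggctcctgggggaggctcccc
The marked element is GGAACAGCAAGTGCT in KLK2 and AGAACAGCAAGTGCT in KLK3. The pattern searched, GAACA, any 3 bases and AGTGCT on either strand, was taken from these promoters and so was certain to be found there. It occurred in 2 of 403 promoters of genes that rose (0.496%), none of 377 of genes that fell, 6 of 14401 of all genes tested (0.0417%) and 14 of all 35116 RefSeq promoters of this length (0.0399%). The other tested genes with it, BLOC1S6, HADH, HNRNPD and SEM1, were not called, with changes of -0.36, -0.09, -0.17 and -0.01. The symmetric element of AGAACA, any 3 bases and TGTTCT occurred in 0 of the 14401 promoters of tested genes and in 1 of all 35116. A single 6-base arm, AGAACA or TGTTCT, which can lie within the longer patterns, occurred in 6.95% of the promoters of genes that rose, 7.43% of those of genes that fell and 8.53% of those of all genes tested. Promoters were matched by symbol for 249 of the 308 genes that rose, 233 of the 297 that fell and 9956 of the 12438 tested.

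**Figure D2:**
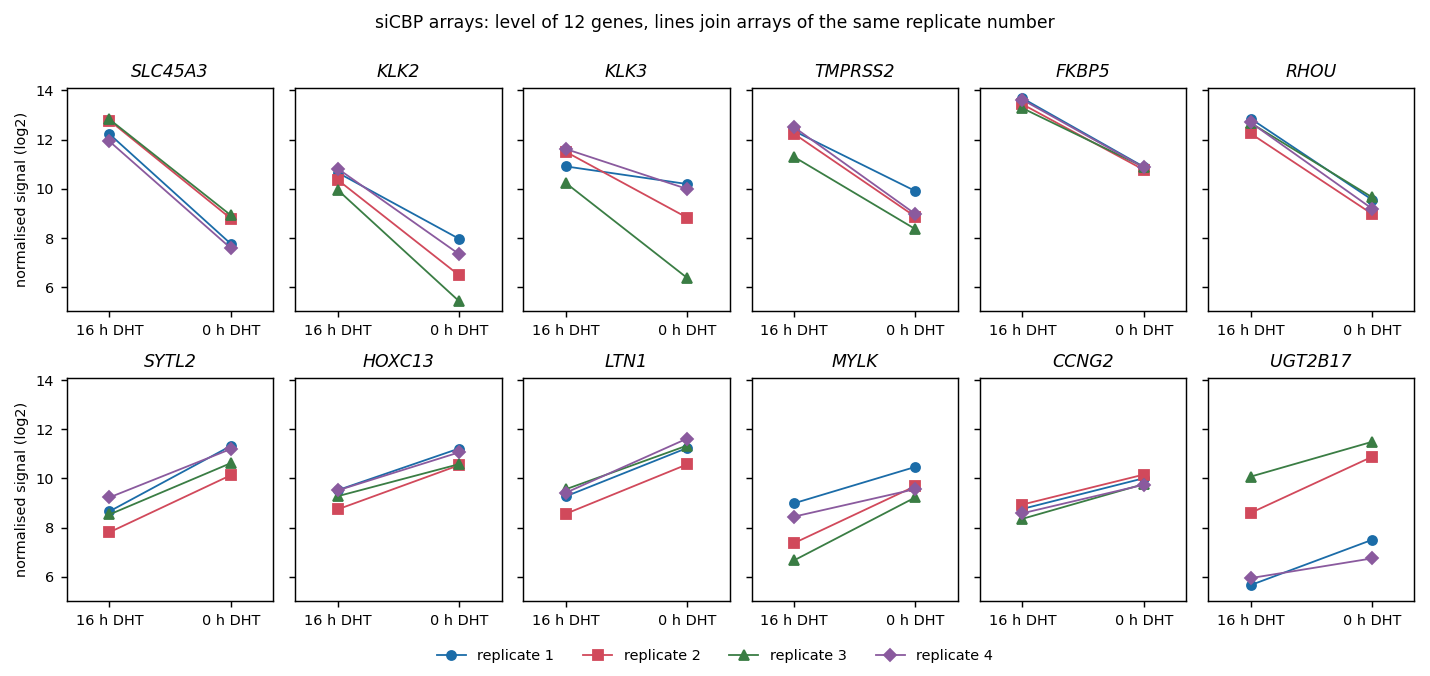
Normalised log2 signal of 12 genes on the 8 siCBP arrays, 16 h of DHT left and 0 h right in each panel; lines join arrays with the same replicate number. SLC45A3, KLK2, TMPRSS2, FKBP5 and RHOU lie above their 0 h arrays without overlap; the 0 h arrays of KLK3 spread between 6.37 and 10.19, and UGT2B17 overlaps between the groups while each pair falls.

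Among 36 measured genes of a list of androgen-induced genes, 30 rose and none fell, with a median change of 1.86 against -0.02 over all genes tested. That was 83.3% called, against 4.86% of all genes tested. This list and every other gene list here were drawn up with earlier results of these data known. Their directions and shares called are thus not independent evidence. All 36 changes were above 0, against 5716 of 12438 over all genes tested. The 6 that did not pass were IQGAP2 (0.72), UAP1 (0.51), ELOVL5 (0.39), CDC14B (0.24), STEAP2 (0.21) and STEAP1 (0.17). Beyond the genes above, SGK1, a kinase that regulates ion channels and transporters, had levels of 11.28, 10.81, 10.27 and 10.65 with DHT and 7.19, 5.56, 6.82 and 6.91 without it. That was a change of 4.13 ± 0.313 (adjusted p = 5.12e-08, limma), and its other 2 probes gave 3.79 and 3.94. SGK1 was detected on 3 of 4 arrays without DHT, so its change includes a signal below detection. RHOU, which acts on the actin cytoskeleton, had levels of 12.86, 12.25, 12.68 and 12.70 with DHT and 9.56, 8.98, 9.66 and 9.20 without it, a change of 3.27 ± 0.206 (adjusted p = 3.6e-09). EAF2, which binds the ELL elongation factors, rose by 2.34 ± 0.174 and ELL2, a transcription elongation factor, by 1.99. CAMKK2, a calcium-dependent kinase that activates AMPK, rose by 1.49 and NDRG1, a stress-responsive gene often induced by hypoxia, by 2.05 ± 0.264. ORM1, an acute-phase plasma protein with the near-identical neighbour ORM2, had levels of 7.78, 7.92, 7.59 and 6.49 with DHT and was detected on none of the 4 arrays without it. It was at least 3.09-fold higher with DHT (adjusted p = 9.22e-06, limma); such a bound sets the mean with DHT against the lowest signal detected on each array without it, or the probe's own where that is higher.

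Of 23 measured genes of a list of androgen-repressed genes, 7 fell and 2 rose, with a median change of -0.54. That was 39.1% called, against 4.86% of all genes tested. SYTL2, a Rab27 effector of secretory vesicles, had levels of 8.66, 7.81, 8.54 and 9.23 with DHT and 11.32, 10.13, 10.62 and 11.20 without it. It was the gene that fell most, by -2.26 ± 0.265 (adjusted p = 1.41e-05, limma), and its other 2 probes gave -1.31 and -0.96. CCNG2, a cyclin linked to growth arrest, had levels of 8.76, 8.94, 8.36 and 8.58 with DHT and 10.01, 10.16, 9.77 and 9.74 without it, a change of -1.26 ± 0.148 (adjusted p = 1.41e-05). CDK8, the kinase of the Mediator complex, changed by -1.24 ± 0.184 (adjusted p = 0.000191). PDE9A, a cyclic GMP phosphodiesterase, and TFPI, an inhibitor of coagulation, rose by 0.74 and 0.78.

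UGT2B17, an enzyme that glucuronidates DHT, differed more between replicate numbers than with DHT. Its levels were 5.66, 8.60, 10.07 and 5.95 with DHT and 7.50, 10.88, 11.49 and 6.75 without it, so the groups overlapped while each of the 4 pairs was lower with DHT. It was detected on 3 of 4 arrays with DHT and 4 of 4 without it. The change of -1.58 ± 0.444 passed narrowly (adjusted p = 0.0426, limma) and did not pass without the block (adjusted p = 0.871). Within slide 1 the change was 0.15 and within slide 2 -3.32. These slide values set arrays of replicates 1 and 2 against each other. The changes within pairs 1 to 4 were -1.84, -2.28, -1.42 and -0.80. Leaving out any array but replicate 4 with DHT ended the call (adjusted p up to 0.145). It is 1 of a family of near-identical genes, and UGT2B15 (-1.44), UGT2B10 (-0.54), UGT2B11 (-0.39) and UGT2B28 (1.03) did not pass. Of the 16 measured genes of androgen metabolism 12.5% were called, too few genes to read against 4.86% of all genes tested. The 1 other call was CYP1A1, an oxidase of aromatic compounds and steroids, at 0.90 ± 0.247 (adjusted p = 0.0367, limma). That call ended when replicate 1 or 4 with DHT or replicate 2, 3 or 4 without it was left out, and the change was 0.35 within slide 1 and 1.46 within slide 2.

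Of the 12 measured luminal markers 5 rose and 3 fell (66.7% called, against 4.86% of all genes tested). ACP3, prostatic acid phosphatase, had levels of 7.01, 6.50, 7.58 and 6.70 with DHT and 8.96, 8.82, 9.18 and 8.25 without it, a change of -1.86 ± 0.303 (adjusted p = 0.000509; 0.0602 without the block). HOXB13, a homeobox factor of prostate identity that works with the androgen receptor, changed by -0.67 ± 0.167 (adjusted p = 0.0199). FOLH1, prostate-specific membrane antigen, fell by 0.58. The keratins KRT8 (0.34) and KRT18 (0.05) and the adhesion molecules EPCAM (-0.02) and CDH1 (-0.19) did not pass. In linear units the summed luminal markers reached 26048 to 32506 with DHT and 18004 to 19800 without it. Of 18 measured genes for receptor chaperones and coregulators only FKBP5 and HOXB13 passed (11.1%), too few genes to read against 4.86%.

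Of 14 measured homeobox genes 5 fell and 1 rose (42.9% called, against 4.86% of all genes tested), and the median change was -0.55. HOXC13, a gene of the HOXC cluster on chromosome 12, had levels of 9.52, 8.74, 9.28 and 9.52 with DHT and 11.22, 10.54, 10.58 and 11.06 without it. Its change of -1.59 ± 0.114 had a small error for its size (adjusted p = 2.56e-08, limma). HOXC9, of the same cluster, had levels of 5.36, 5.57, 5.84 and 6.32 with DHT and 7.84, 7.75, 7.73 and 8.33 without it. It was detected on 1 of 4 arrays with DHT and 4 of 4 without it and changed by -2.14 ± 0.219 (adjusted p = 2.35e-06). HOXC6 and HOXB5 fell by 0.49 and 0.61, and MEIS1, a homeobox partner of HOX proteins, rose by 0.60. HOXC8 (-0.79) and HOXC4 (-0.78) did not pass. The call of HOXB13 ended without replicate 1, 3 or 4 with DHT or replicate 1 or 4 without it (adjusted p up to 0.0902), and that of HOXB5 without any array but replicate 2 with DHT (adjusted p up to 0.197). HOXB5 changed by -0.04 within slide 1 and -1.17 within slide 2.

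Of 28 measured genes of a list of other DNA-binding regulators 9 rose and 1 fell, with a median change of 0.06. That was 35.7% called, against 4.86% of all genes tested. The 1 that fell, TP53INP1, is not itself a DNA-binding factor and also stands in the list of p53 targets. ZBTB16, the transcriptional repressor PLZF, had levels of 10.31, 10.65, 10.50 and 10.85 with DHT and 8.47, 7.07, 6.29 and 7.60 without it, a change of 3.22 ± 0.305 (adjusted p = 8.92e-07, limma). The arrays with DHT lay close together and those without it spread over more than 2 log2 units. MAF, a bZIP factor, rose by 2.00 ± 0.243. SPDEF, an ETS factor of luminal and secretory epithelium, rose by 1.24 ± 0.223. RUNX1 was detected on 4 of 4 arrays with DHT and none without it, which gave a rise of at least 1.93-fold. TP53INP1, a regulator of p53 signalling and autophagy, had levels of 10.38, 10.58, 10.80 and 10.53 with DHT and 11.34, 11.68, 11.95 and 11.56 without it, a change of -1.06 ± 0.161 (adjusted p = 0.000248). TSHZ3, a zinc finger homeobox factor outside the list, had levels of 6.07, 6.30, 6.76 and 5.82 with DHT and 7.31, 8.09, 8.20 and 7.15 without it, a change of -1.45 ± 0.111 (adjusted p = 5.69e-08). FOXQ1, a forkhead factor, was detected on none of 4 arrays with DHT and on 4 of 4 without it and was at least 1.89-fold lower (adjusted p = 0.00154), with fitted changes of -1.12 within slide 1 and -2.29 within slide 2. None of the 16 measured immediate early genes was called, and their changes lay between -0.51 (EGR3) and 0.46 (JUNB), too few genes to read against 4.86%.

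**Figure D3:**
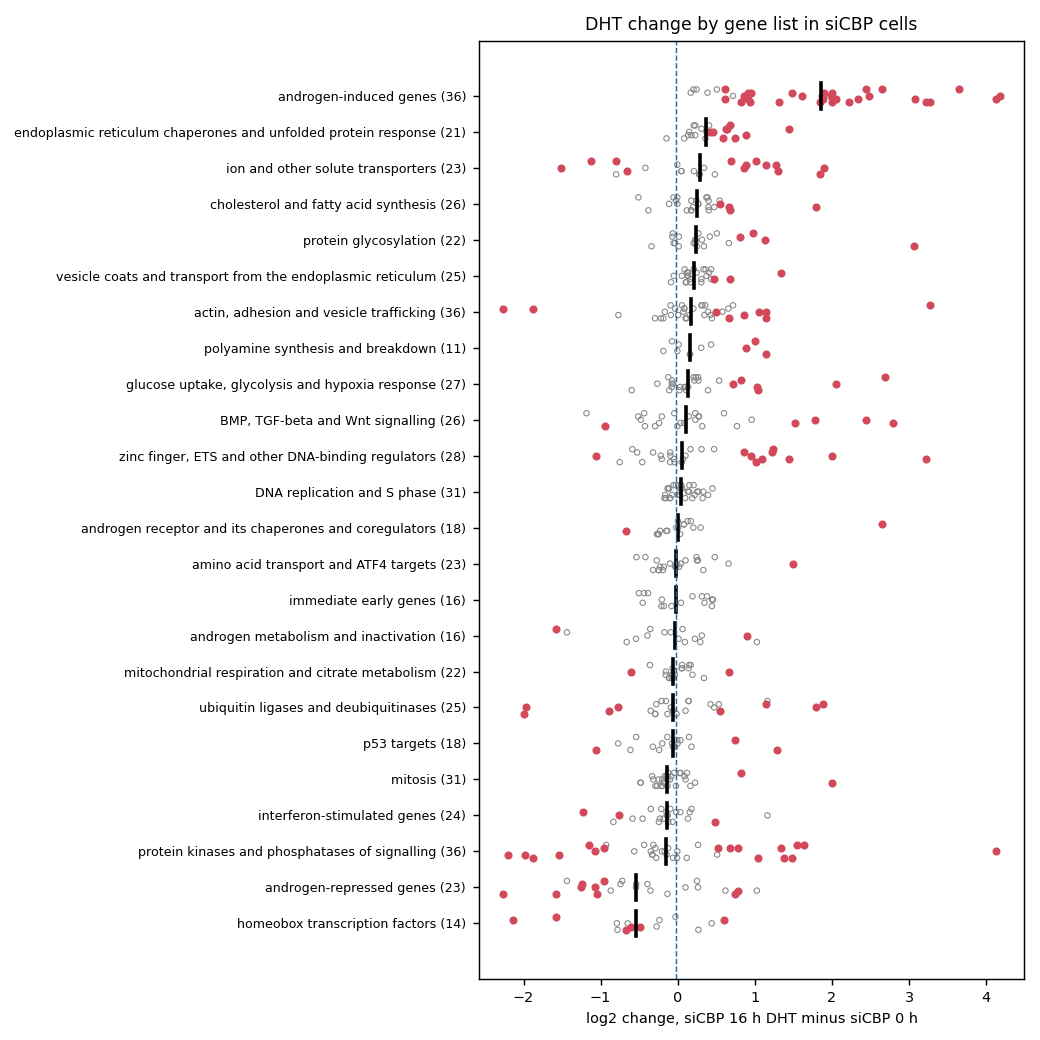
Change of each measured gene (x axis, log2, 16 h DHT minus 0 h in siCBP cells) by gene list (y axis, number measured in brackets); red points passed an adjusted p of 0.05, open points did not, black bars are list medians and the dashed line is the median of all genes tested, -0.02. Medians run from -0.55 for homeobox factors to 1.86 for androgen-induced genes.

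Several genes of the secretory pathway rose, by smaller amounts. Of 21 measured chaperones and unfolded protein response genes of the endoplasmic reticulum 9 rose and none fell (42.9%, against 4.86% of all genes tested). Of their changes 20 of 21 were above 0 (median 0.37), against 5716 of 12438 over all genes tested. Like the other lists, this list and that of vesicle genes were drawn up with earlier results of these data known. Their direction is not independent evidence. DNAJB9, a co-chaperone of the lumen, had levels of 11.56, 11.34, 10.58 and 11.36 with DHT and 9.57, 10.11, 9.43 and 9.94 without it, a change of 1.45 ± 0.163 (adjusted p = 9.62e-06, limma). The disulfide isomerases PDIA5, PDIA4 and PDIA6 rose by 0.88, 0.59 and 0.41, and the secreted stress protein MANF by 0.68 ± 0.152. The call of MANF ended without replicate 3 of the 0 h arrays (adjusted p = 0.0526). That of DNAJC3 (0.74) ended without replicate 1 or 4 with DHT or replicate 2 or 3 without it (adjusted p up to 0.0761, limma). Of 25 vesicle coat and transport genes 3 rose, none fell, and 23 changes were above 0 (median 0.21). The 3 calls were 12% of the list, too few genes to read against 4.86%. SEC24D, a cargo-binding COPII coat protein, had levels of 8.74, 8.49, 8.13 and 8.42 with DHT and 7.09, 7.35, 6.83 and 7.15 without it, a change of 1.34 ± 0.183 (adjusted p = 8.37e-05). SPCS3, a signal peptidase subunit, rose by 0.68 ± 0.117 (0.44 within slide 1 and 0.92 within slide 2). SEC23B rose by 0.47, and its call ended without replicate 1, 2 or 4 with DHT or replicate 2 without it (adjusted p up to 0.0947, limma).

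Of 22 glycosylation genes 4 rose and none fell (median 0.24), 18.2% called against 4.86% of all genes tested. ST6GALNAC1, the sialyltransferase that makes the sialyl-Tn antigen, had levels of 9.81, 8.47, 7.81 and 10.42 with DHT and 6.49, 4.86, 5.24 and 7.67 without it. Its arrays spread over more than 2 log2 units in each group but the pairs moved together, and the change was 3.06 ± 0.391 (adjusted p = 3.79e-05, limma). It was detected on 4 of 4 arrays with DHT and 2 of 4 without it, so the spread and the change include signals below detection. ST6GAL1, another sialyltransferase, rose by 0.97 ± 0.169 (adjusted p = 0.000996), and GCNT1, which branches core O-glycans, by 0.81 ± 0.182. The call of GCNT1 ended without replicate 2 of the 0 h arrays (adjusted p = 0.0528). CSGALNACT1, a chondroitin synthesis enzyme, was detected on 2 of 4 arrays with DHT and none without it, and its call ended without replicate 1 or 4 with DHT or replicate 1 or 3 without it (adjusted p up to 0.132).

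In metabolism, 3 of 11 polyamine genes rose and none fell. ODC1, which makes putrescine in the first committed step, had levels of 14.30, 14.45, 13.87 and 14.34 with DHT and 12.86, 13.19, 13.13 and 13.20 without it, a change of 1.14 ± 0.173 (adjusted p = 0.000242, limma). SMS, spermine synthase, rose by 1.01 ± 0.152 and SAT1, which acetylates polyamines for export and breakdown, by 0.89 ± 0.159. Both synthetic and catabolic enzymes were higher. Of 26 cholesterol and fatty acid genes 4 rose and none fell (median 0.25). IDI1 was among them at 0.55, but its call ended without any array but replicate 4 of each group (adjusted p up to 0.153, limma). It changed by 0.18 within slide 1 and 0.93 within slide 2. ELOVL7, an elongase of long fatty acids, was detected on 4 of 4 arrays with DHT and none without it, which gave a rise of at least 2.43-fold (adjusted p = 0.000428). ACACA, acetyl-CoA carboxylase, rose by 0.68 ± 0.127 (0.37 within slide 1 and 0.98 within slide 2), and SCAP, the escort of the SREBP factors, by 0.67 ± 0.13. Of 27 genes of glucose uptake, glycolysis and the hypoxia response 6 rose and none fell (median 0.13). SLC2A3, the glucose transporter GLUT3, had levels of 7.70, 7.07, 7.02 and 7.85 with DHT, was detected on none of 4 arrays without it, and was at least 3.03-fold higher with DHT (adjusted p = 2.73e-07). The glucose transporters SLC2A1 and SLC2A12 rose by 0.71 and 0.82. HK2, hexokinase 2, rose by 1.04 ± 0.212 and VEGFA, the angiogenic growth factor, by 1.02 ± 0.173. Without the block neither passed (adjusted p = 0.362 for VEGFA), and VEGFA changed by 1.77 within slide 1 and 0.28 within slide 2. A second probe of HK2 gave 0.39 (unadjusted p = 0.113). Of 22 mitochondrial genes 1 rose (GLUD1, glutamate dehydrogenase, 0.67 ± 0.163) and 1 fell (NDUFAF4, an assembly factor of complex I, -0.61 ± 0.139). The call of GLUD1 ended without replicate 4 with DHT or replicate 2 or 3 without it. Of 23 genes of amino acid transport and ATF4 targets 1 rose, SLC43A1, a carrier of large neutral amino acids, by 1.50 ± 0.285 (adjusted p = 0.00227). Against 4.86% of all genes tested, 4.35% of the amino acid list and 9.09% of the mitochondrial list were called. Called were also 15.4% of the lipid list, 22.2% of the glucose and hypoxia list and 27.3% of the polyamine list. The amino acid share is at the background, and the mitochondrial and polyamine lists hold too few genes to read against it.

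Among 23 ion and solute transporters 9 rose and 4 fell (56.5% called, against 4.86% of all genes tested). This list too was drawn up with earlier results of these data known, so the share is not independent evidence. ABCC4, an export pump, had levels of 11.80, 11.56, 11.47 and 11.60 with DHT and 10.26, 9.65, 9.55 and 9.58 without it, a change of 1.85 ± 0.185 (adjusted p = 1.77e-06, limma). TRPM8, a cold-gated calcium channel abundant in prostate, was detected on 4 of 4 arrays with DHT and 1 of 4 without it and rose by 1.90 ± 0.243. ABCG1, a sterol exporter, changed by -1.51 ± 0.289 (adjusted p = 0.00231), while its other 2 probes gave 0.29 and -1.82; it changed by -0.75 within slide 1 and -2.27 within slide 2. SLC12A2, a sodium, potassium and chloride cotransporter, fell by 1.12. SLC26A3 rose by 1.30, a call that ended without any array but replicate 2 with DHT (adjusted p up to 0.175, limma). KCNJ13, an inward rectifier potassium channel, had levels of 5.73, 5.12, 5.93 and 5.75 with DHT and 8.77, 6.10, 6.02 and 8.72 without it. Replicates 1 and 4 stood above the other arrays without DHT. It was detected on 2 of 4 arrays with DHT and 4 of 4 without it. The change was -1.77 ± 0.484 (adjusted p = 0.0368), and the call ended without replicate 1, 2 or 4 with DHT or replicate 1 or 4 without it (adjusted p up to 0.164). Within slide 1 it was -3.31 and within slide 2 -0.23. KCNU1, another potassium channel, changed by -1.68 ± 0.386 (adjusted p = 0.011), a call that ended without replicate 2 with DHT (adjusted p = 0.0538). It was detected on 3 of 4 arrays with DHT.

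Signalling genes changed in both directions. Of 36 kinases and phosphatases 10 rose and 7 fell (median -0.16), 47.2% called against 4.86% of all genes tested. STK17B, a death-associated kinase, rose by 1.64, INPP4B, a phosphoinositide phosphatase that opposes AKT signalling, by 1.55 and STK39, a regulator of chloride cotransporters, by 1.04. MYLK, myosin light chain kinase, had levels of 8.99, 7.37, 6.67 and 8.45 with DHT and 10.47, 9.69, 9.23 and 9.57 without it, a change of -1.87 ± 0.295 (adjusted p = 0.000358, limma). MAP3K8, a kinase upstream of ERK, had levels of 7.04, 7.39, 6.87 and 6.68 without DHT, was detected on none of 4 arrays with it, and was at least 2.21-fold lower with DHT (adjusted p = 1.14e-05). DEPTOR, an mTOR inhibitor, fell by 1.54 and PIK3R1, the regulatory subunit of PI3K, by 0.96. PTPRR, a receptor tyrosine phosphatase that acts on MAP kinases, changed by -2.21 ± 0.313 (adjusted p = 0.000131), but its second probe gave -0.22 (unadjusted p = 0.447).

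Of 26 genes of BMP, TGF-beta and Wnt signalling 4 rose and 1 fell (19.2% called, against 4.86% of all genes tested). NBL1, a secreted BMP antagonist, had levels of 10.61, 10.48, 9.52 and 10.20 with DHT and 7.70, 7.46, 7.36 and 7.12 without it, a change of 2.79 ± 0.221 (adjusted p = 8.55e-08, limma). PMEPA1, a membrane inhibitor of TGF-beta signalling, had levels of 11.67, 11.65, 11.45 and 11.87 with DHT and 9.49, 9.41, 8.90 and 9.04 without it, a change of 2.45 ± 0.133 (adjusted p = 4.67e-10). BMPR1B, a BMP receptor, lay below detection on the 4 arrays without DHT and was higher with DHT by at least 2.97-fold. The Wnt receptors moved apart, FZD5 rising by 1.53 ± 0.26 and FZD3 falling by 0.94.

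Of 25 ubiquitin ligases and deubiquitinases 4 rose and 4 fell (32% called, against 4.86% of all genes tested). LTN1, the ligase that tags nascent chains on stalled ribosomes, had levels of 9.27, 8.57, 9.56 and 9.42 with DHT and 11.24, 10.58, 11.34 and 11.63 without it, a change of -1.99 ± 0.193 (adjusted p = 1.08e-06, limma). MID1, a microtubule-bound ligase encoded on the X chromosome, had levels of 6.83, 6.59, 6.75 and 6.85 with DHT and 8.56, 8.69, 9.37 and 8.29 without it, a change of -1.97 ± 0.254 (adjusted p = 4.13e-05). HERC3 rose by 1.88 ± 0.208 and TRIM36 by 1.80 ± 0.268, but the other 2 probes of TRIM36 gave 0.16 and 0.26 and did not pass. Of 36 genes of actin, adhesion and vesicle trafficking 7 rose and 2 fell (SYTL2 and MYLK), 25% called against 4.86%. CLDN8, a tight junction protein, rose by 1.15 ± 0.201 and RAB3B, a small GTPase of secretory vesicles, by 1.05.

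Among genes of the cell cycle, none of 31 measured genes of DNA replication and S phase was called, where 4.86% of all genes tested were, so this count says little. Their changes lay between -0.17 (MCM3) and 0.45 (MCM10). Of 31 mitosis genes 2 rose, and both also stand in the androgen-induced list: NCAPD3, a condensin subunit, by 2.00 ± 0.245 and CENPN, a centromere protein, by 0.82 ± 0.148. The other 29 did not pass, so 6.45% of the list was called, near the background, and its median was -0.13. Of 18 p53 targets 2 rose and 1 fell: GDF15, a secreted stress cytokine, by 1.29 ± 0.281, TNFRSF10B, a TRAIL receptor, by 0.74 ± 0.121, and TP53INP1 as given above. These were 16.7% of the list, too few genes to read against 4.86%. GDF15 changed by 2.10 within slide 1 and 0.47 within slide 2 and did not pass without the block (adjusted p = 0.538). Of 24 interferon-stimulated genes 1 rose and 2 fell (median -0.14), 12.5% of the list and too few genes to read against 4.86%. IRF1, an interferon-responsive transcription factor, had levels of 5.26, 5.15, 5.12 and 6.36 with DHT and 6.94, 5.89, 7.08 and 6.90 without it. Its groups overlapped, and the fitted change was -1.23 ± 0.255 (adjusted p = 0.00486, limma). With DHT, replicates 1, 2 and 3 lay below the lowest signal detected on their arrays (5.88, 5.89 and 5.92). The fit thus includes signals below detection. MX1 (-0.77) and B2M (0.48) passed narrowly (adjusted p = 0.0369 and 0.0444), and the call of MX1 ended without any array but replicate 4 of each group, that of B2M without any array but replicates 2 and 3 of the 0 h group. MX1 changed by -0.29 within slide 1 and -1.25 within slide 2.

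Among the remaining genes with the largest changes, PGC, the pepsinogen progastricsin, had levels of 9.24, 8.70, 7.87 and 9.41 with DHT and 6.32, 5.25, 5.99 and 6.05 without it, a change of 2.90 ± 0.228 (adjusted p = 7.82e-08, limma). PGC was detected on 3 of 4 arrays without DHT, so its change includes a signal below detection. OTULINL, a relative of the deubiquitinase OTULIN, rose by 2.50 ± 0.28. COLEC12, a scavenger receptor of the collectin family, had levels of 7.83, 6.52, 6.88 and 7.68 with DHT and 10.29, 8.51, 9.05 and 9.21 without it, a change of -2.04 ± 0.311 (adjusted p = 0.000255). CCDC83 was detected on none of 4 arrays with DHT and 4 of 4 without it and was at least 2.71-fold lower. The probe used for C1QTNF6, a secreted C1q and TNF related protein, was detected on none of 4 arrays with DHT and 4 of 4 without it and was at least 2.42-fold lower. Its second probe was detected on 3 of 4 arrays with DHT and 1 of 4 without it and gave 0.12 (unadjusted p = 0.66), so the probes disagree. GASK1B, a Golgi-associated protein, changed by -1.72 ± 0.324 (adjusted p = 0.00208; 0.0921 without the block), by -0.58 within slide 1 and by -2.86 within slide 2. It was detected on 3 of 4 arrays with DHT. In all, 25 genes that rose were detected on no array without DHT, and 26 that fell on no array with it.

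The DHT response of siCBP cells was then set beside that of siNS cells, which share no array with it. DHT changed 737 genes in siNS cells (5.93%), 409 higher (3.29%) and 328 lower (2.64%). Of the 308 genes that rose in siCBP cells 257 were also among the 409, and of the 297 that fell 182 were also among the 328. Among the same 308 and 297 genes, the siNS estimate had the same sign for 304 and 290. How often the signs matched over all genes tested was not counted. The size was close for several androgen targets. SLC45A3 changed by 4.17 in siCBP and 4.10 in siNS cells, a difference of 0.07 with a 95% interval from -0.36 to 0.51. For FKBP5 the changes were 2.65 and 2.70 and the interval of the difference ran from -0.49 to 0.40, and for CCNG2 it ran from -0.44 to 0.43. KLK2 changed by 3.64 in siCBP and 3.91 in siNS cells (interval of the difference from -1.19 to 0.66), and KLK3 by 2.22 and 2.06 (from -0.95 to 1.26), so differences of up to about 1 log2 unit are within these intervals. TMPRSS2 changed by 3.07 in siCBP and 2.41 in siNS cells (interval from -0.16 to 1.47). Not all genes with large changes were this close. LTN1 changed by -1.99 in siCBP and -1.38 in siNS cells, with an unadjusted interval of the difference from -1.18 to -0.04. The unadjusted intervals of SLC2A3 and CCDC83 excluded 0 too, but their fits include signals below detection.

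No difference of DHT change between siCBP and siNS cells passed (0 of 12438 genes, limma; lowest adjusted p = 0.206), and 350 had an unadjusted p under 0.05. The median standard error of that difference was 0.249, and its 95% interval reached 0.52 to either side at the median without adjustment. After adjustment larger differences failed too, as for SYNGR1 below. The lowest p belonged to SYNGR1, a synaptic vesicle protein, called in opposite directions in each arm. It changed by -0.54 ± 0.138 in siCBP and by 0.56 in siNS cells, a difference of -1.10 with a 95% interval from -1.51 to -0.70. Its siCBP call ended without replicate 2 or 3 with DHT or replicate 1, 3 or 4 without it (adjusted p up to 0.117) and without the block. Its other probes gave -0.62 and -0.11. The siCBP change was -1.03 within slide 1 and -0.06 within slide 2. TRIM49C, of a family of near-identical copies, changed by 0.74 in siCBP cells (1.19 within slide 1 and 0.28 within slide 2) and -0.64 in siNS cells. ARHGAP25 was detected on 4 of 4 arrays with DHT and none without it in siCBP cells, and on none with DHT and 2 of 4 without it in siNS cells.

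**Figure D4:**
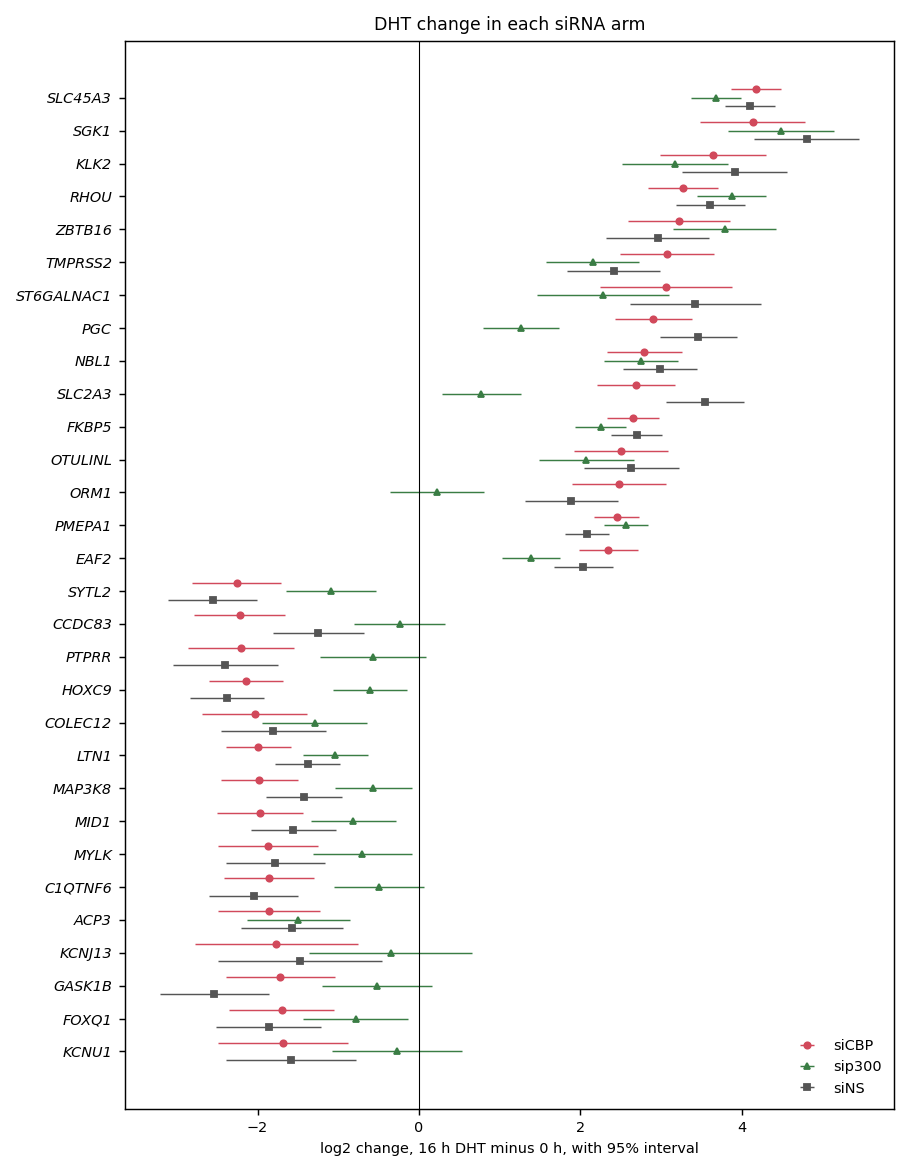
Log2 change with DHT (x axis, 16 h minus 0 h, with 95% intervals from limma) of the 15 genes that rose most and the 15 that fell most in siCBP cells (y axis), for siCBP (red circles), sip300 (green triangles) and siNS cells (grey squares). The genes were chosen on the siCBP values, and changes of probes undetected in a group are fitted values; SLC45A3 lies at 4.17, 3.68 and 4.10, PGC at 2.90, 1.26 and 3.46, and HOXC9 at -2.14, -0.61 and -2.38.

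In sip300 cells DHT changed 205 genes (1.65%). Of the genes that rose or fell in siCBP cells, 292 of 308 and 273 of 297 had an estimate of the same sign in sip300 cells. Here too the share over all genes tested was not counted. No difference of DHT change between siCBP and sip300 cells passed (0 of 12438, limma; lowest adjusted p = 0.0574), and 645 had an unadjusted p under 0.05. Other settings with the block called up to 17 genes. For the values computed here, the fit without the block and the fits within each slide called 0. The authors' deposited processed values without the block called 35. No replicate number had both its sip300 arrays on the same slide, so the slide values below set different replicates against each other. HOXC13 had the lowest p: it changed by -1.59 in siCBP and -0.58 in sip300 cells, with a 95% interval of the difference from -1.34 to -0.67 (adjusted p = 0.0574). It passed in 10 other settings, but the difference was -2.06 within slide 1 and 0.05 within slide 2, where its direction turned. TSHZ3 changed by -1.45 in siCBP and -0.60 in sip300 cells (adjusted p = 0.0646), and that difference turned too, with 0.19 within slide 1 and -1.88 within slide 2. KLK4 changed by 0.91 in siCBP and 2.23 in sip300 cells, a difference of -1.31 from -1.81 to -0.81 that did not pass (adjusted p = 0.0646). It passed in 8 other settings and was -2.20 within slide 1 and -0.43 within slide 2. Without the block none of these 3 differences passed for the values computed here, while all 3 passed with the authors' values and no block. The level of KLK4 was 13.73 ± 0.13 with DHT and 12.82 ± 0.518 without it in siCBP cells, and 13.21 ± 0.34 and 10.98 ± 0.625 in sip300 cells (SD, n = 4 each). ORM1 and SLC2A3 were detected on no array without DHT in either arm, so the size of their changes is not given. With DHT, ORM1 averaged 7.44 ± 0.651 in siCBP cells, detected on 4 of 4 arrays, and 5.37 ± 0.309 in sip300 cells, detected on none (SD, n = 4 each). SLC2A3 averaged 7.41 ± 0.426 with DHT in siCBP cells, detected on 4 of 4 arrays, and 5.54 ± 0.588 in sip300 cells, detected on 2 of 4. Neither difference of DHT change passed (adjusted p = 0.0574 for both), and both fits include signals below detection. The long non-coding RNA gene LINC00930 changed by 1.31 in siCBP cells, while in sip300 cells it was detected on 1 of 4 arrays with DHT and 2 of 4 without it.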

How the data were processed

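Total RNA was measured on 24 arrays in 6 groups of 4, grouped by siRNA and DHT time from the sample titles. The deposited table held the authors' mean bead intensity per probe, not normalised, with a detection p-value beside each, per the file headers. The authors' deposited processed values were on a log2 scale; the submitters' processing notes name limma without a version. These authors' values correlated with those computed here at r = 0.998 or more, 24 of 24 with their own array, and their column medians were 5.45 to 5.47. How the authors scaled or centred them is not given in the sources used here.

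Of 48118 rows 887 control rows were left out. Intensities went through limma's neqc, which corrects background and then normalises by quantiles (limma 3.58.1, R 4.3.3; offset 16, control spots replaced by detection p-values). A probe was kept if its detection p was below 0.05 on 4 or more of the 24 arrays (23038 probes); 16655 named 1 gene, 4 several and 6379 none in the platform table, with symbols updated by Entrez identifier for 30074 of 47231 probes. The brightest probe stood for each gene (12438 genes, 3279 with over 1 kept probe). A limma fit of all 24 arrays had 6 group means and a block for the replicate number, which left 15 residual degrees of freedom; 2-sided p-values were adjusted by Benjamini and Hochberg's method per contrast. The fit was checked on simulated data.

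Arrays were paired by the replicate numbers in the sample titles. The labels do not say what a number stands for, and the values were used only to check the pairing. Deviations from group means correlated at 0.252, 0.348, 0.376 and 0.537 within the 4 siCBP pairs and at -0.395 to 0.236 between different numbers.

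The arms, gene lists and rule for naming genes were chosen with earlier results of these data known. Named were the 15 genes that rose and the 15 that fell most among called genes without overlap of arrays and detected on all 4 arrays of the higher group, up to 4 called members of each of 29 lists, KLK2, KLK3, TMPRSS2, FKBP5, CREBBP and EP300, and the 6 genes with the lowest p in each difference between arms. Further members given to complete a list's count, with single values, were named after their values were seen. Alternatives were no block, no background correction, the authors' values with and without the block, no filter, averaged probes, a filter of detection on every array, a slide block, single slides, limma's trend and robust options, siCBP arrays alone and each array left out.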

Additional observations from a re-analysis of the deposited data

Results flagged for a closer look

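Among 184 groups of 4 siCBP arrays checked, 8 held an array far from the other 3 of its group, where chance flags about 1 in 20. With DHT, replicate 4 was apart for 3 genes: PDIA5 at 10.52 (others 10.80 to 10.84), CLDN8 at 7.85 (others 8.29 to 8.38) and IRF1 at 6.36 (others 5.12 to 5.26). Those other IRF1 signals lay below the lowest detected on their arrays. Without DHT, IRF1 was at 5.89 in replicate 2 (others 6.90 to 7.08), ST6GAL1 at 8.69 in replicate 2 (others 8.24 to 8.31), HOXC9 at 8.33 in replicate 4 (others 7.73 to 7.84), ABCC4 at 10.26 in replicate 1 (others 9.55 to 9.65) and BMPR1B at 5.19 in replicate 3 (others 5.70 to 5.75), which was detected on none of those 4 arrays.

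Probes without a gene symbol took no part in the comparisons by gene. Of 6379 such probes that passed the detection filter, 117 were called between siCBP arrays with and without DHT (limma, adjusted over all probes), 69 higher and 48 lower. That is a smaller share than the 605 of 12438 genes tested (4.86%, adjusted over genes). The largest rise was that of ILMN_2335583, by 3.34 ± 0.207 (log2, SE, n = 4 arrays in each group; adjusted p = 4.33e-09, limma).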

How the results depend on the processing

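The 605 genes called in siCBP cells became 277 without the replicate block, 328 with siCBP arrays alone, 38 within slide 1, 64 within slide 2 (the last 2 with 2 arrays per group) and 1058 with the authors' values without the block. Leaving out each siCBP array gave 453 to 537, and the other alternatives gave 539 to 856 genes. Of the 87 called genes named by rule, 62 kept their call without the block, and 75 to 78 kept it with an array left out. UGT2B17 turned to 0.147 within slide 1, where replicates 2 and 4 with DHT stood against replicates 1 and 4 without it. Differences between siCBP and siNS numbered 0, except 1 with the authors' values (SYNGR1) and 3 with those values without the block. Differences between siCBP and sip300 numbered 17 without background correction, 15 with the authors' values and 35 with those values without the block, 4 with detection on all arrays, 4 with the mean of a gene's probes, 11 with slide as a block, 11 with trend and robust options, and 0 to 5 with an array left out. They numbered 0 without the block, without the filter and within each slide. Replicate number accounted for 44.7% of the within-group variation after neqc and 5.53% in the deposited table. Whether the authors adjusted for it is not stated, and if they did, the fits to their values without the block do not count that adjustment. The causes were not tested.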
